A study of Mus musculus with 14 samples.

Results

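The Lin28, Trim71, Hmga and Igf2bp genes of the mouse were followed as a set of 8 genes among the 23174 rows of the deposited expression table, across all 14 libraries. Lin28a, Lin28b, Trim71, Hmga1, Hmga2, Igf2bp1, Igf2bp2 and Igf2bp3 were taken by symbol. Each symbol matched 1 row, and all 8 genes were above the filter on low values in every comparison.

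The series asks whether Zfp281, a zinc finger transcription factor, holds mouse embryonic stem cells (ESCs) back from becoming extraembryonic endoderm (XEN) cells, the stem cells of the yolk sac lineage. ESCs of 129S1/SVImJ background, grown without feeders in serum and LIF, came from 4 lines: WT3 (wild type), KO3.34 and KO2.6 (Zfp281KO, -/-), and Rescue3.34, which is KO3.34 with Zfp281 put back. Each line gave 1 polyA RNA-seq library as ESCs, 1 at passage 1 of chemical induction (cXENp1, after 48 hours of 0.01 µM all-trans retinoic acid with 10 ng/mL activin A in XEN medium), and 1 at passage 3 (cXENp3, on gelatin, after a passage on fibroblast feeders). XENB1 (129S1) and XEN5 (129S1/SVImJ) are wild-type established XEN lines, grown in fibroblast-conditioned XEN medium, with 1 library each.

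WT3 and Rescue3.34 are together called the Zfp281-present lines, and KO3.34 and KO2.6 the KO lines. The second KO line is named after the sample titles; its cell line field gives another number. Rescue3.34 and KO3.34 are not independent, since the first was made from the second. No source used here says that libraries of 1 group came from separate cultures, so the p-values measure the spread between these libraries. RNA was taken from whole cultures, in which fewer cells of a type and less RNA per cell cannot be told apart.

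The 8 genes are linked by the let-7 microRNA family and are known as oncofetal genes, active in early embryos and in many tumours, and several of them low in most adult tissues. LIN28A and LIN28B are RNA-binding proteins that bind the loop of let-7 precursors and block their maturation, and the mRNAs of both LIN28 genes are themselves let-7 targets. TRIM71, a ubiquitin ligase and RNA-binding protein, HMGA1 and HMGA2, which bind AT-rich DNA in chromatin, and the IGF2BP proteins, which bind and stabilise mRNAs such as that of Igf2, are known targets or partners of the same circuit.

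The sequences of that circuit are shown to locate what links the members. Mature let-7 sequences of mouse are from RefSeq (GRCm38.p6), with the seed (bases 2 to 8, the part that pairs with a target) in capitals. Of 10 let-7 microRNAs in that table, 9 share the seed GAGGUAG. The precursor of let-7g is printed with the GGAG tetranucleotide, to which LIN28 is known to bind, in capitals; 9 of 11 let-7 hairpins held GGAG at any place.
let-7a: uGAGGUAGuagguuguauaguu
let-7g: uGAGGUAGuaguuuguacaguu
let-7d: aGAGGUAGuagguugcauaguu
Mirlet7g hairpin: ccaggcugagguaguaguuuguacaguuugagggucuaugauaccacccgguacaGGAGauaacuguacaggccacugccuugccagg

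The 3′ UTRs of the 8 genes in the GENCODE M21 transcripts (GRCm38) were searched for CTACCTC, the letters that pair with that seed, on the transcript strand. All 8 held at least 1 match, 21 matches in all, whereas 9.11% of 20798 genes with a 3′ UTR held 1 or more. That background had a median 3′ UTR of 976 bases, against 1183 (Hmga1) to 6337 (Igf2bp1) for the members. The 8 genes were named above as known let-7 targets or partners, so the matches describe the set and do not test it. The match nearest the stop codon is printed for each gene, within 23 bases of the UTR, with CTACCTC in capitals.
Lin28a: gcacagcctgttgaaCTACCTCa
Lin28b: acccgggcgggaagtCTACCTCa
Trim71: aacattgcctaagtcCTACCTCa
Hmga1: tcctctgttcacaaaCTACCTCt
Hmga2: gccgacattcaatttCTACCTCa
Igf2bp1: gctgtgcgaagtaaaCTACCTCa
Igf2bp2: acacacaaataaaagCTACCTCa
Igf2bp3: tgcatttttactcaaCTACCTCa

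Lin28b, Trim71, Hmga2 and Igf2bp1 held 4 matches each, Lin28a held 2, and Hmga1, Igf2bp2 and Igf2bp3 held 1 each. The 3′ UTR of Hmga2 spans 3014 bases, and 0.13% of 2245 genes with a 3′ UTR within 20% of that length held as many matches. For Lin28b the share was 0.24% of 1270 genes, for Igf2bp1 0.36% of 563, for Trim71 0.51% of 792 and for Lin28a 2.1% of 2428. At least 1 match was held by 14.42% of genes of like length for Lin28a and 15.55% for Hmga2. The same share was 24.17% for Lin28b, 29.42% for Trim71 and 33.57% for Igf2bp1. The single matches of Hmga1, Igf2bp2 and Igf2bp3 were common for their length, at 8.09%, 12.1% and 13.3% of such genes. A match is a description of letters and not a measured site, and let-7 itself was not measured: its 11 rows in the table are listed at 0 in all 14 libraries, which were made from polyA RNA.

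**Figure D1:**
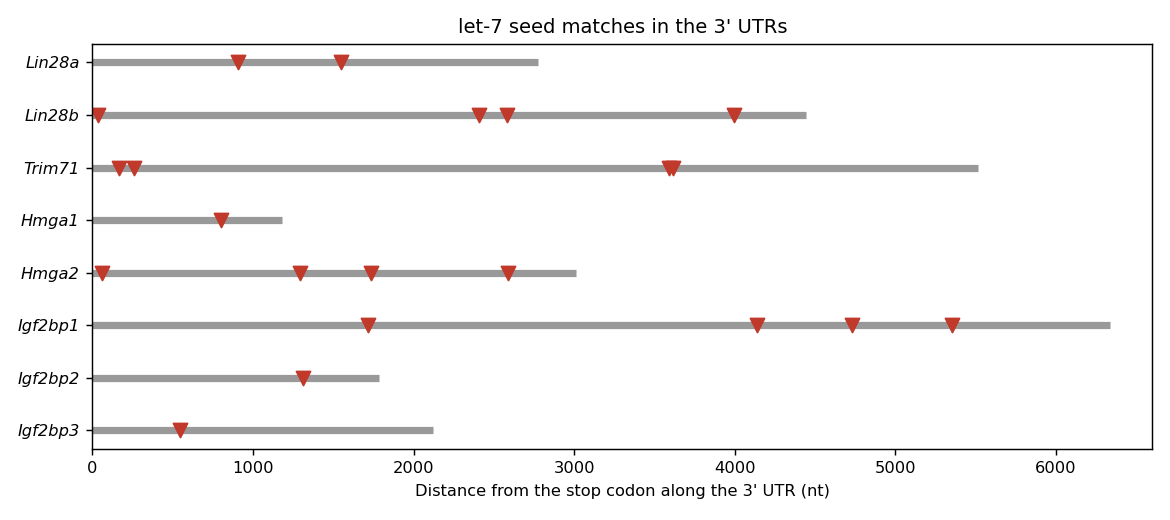
Position of each match to the let-7 seed (triangles) along the 3′ UTR of the 8 genes (grey bars, drawn to scale), in bases from the stop codon, in GENCODE M21 transcripts. The first matches of Lin28b and Hmga2 lie 36 and 58 bases after the stop codon, and that of Igf2bp1 lies 1715 bases after it.

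Values are FPKM, a measure scaled for transcript length and for library size, so levels can be set side by side between genes. Their sums ran from 424406 to 718138 per library, no counts are given, and the depth is unknown. Zfp281 had 25.1 to 38.6 FPKM in the 6 libraries of the Zfp281-present lines, 1.29 to 3.96 in KO3.34, at most 0.559 in KO2.6, and 10.6 and 12.5 in XENB1 and XEN5, so the libraries matched their labels. Defining markers were summed per library. The 12 pluripotency markers ran from 7615 to 10078 FPKM in ESCs and from 86.7 to 132 in XEN lines. At cXENp3 the same sum was 7963 FPKM for WT3, 4166 for Rescue3.34, 1168 for KO3.34 and 378 for KO2.6. KO2.6 stood apart already in ESCs, with 511 FPKM over 14 XEN markers, all 14 of them at 1 FPKM or more, against 54.1 to 74.1 in the other ESC libraries, and at cXENp1 it had 2792 FPKM of them against 291 to 341 in the other 3 lines. In the XEN lines and in both KO libraries at cXENp3, 4 of these markers (Col4a1, Col4a2, Lama1 and Sparc) are listed at 0, and the sum was 1023 to 1567 FPKM. In KO2.6 the same 4 had 67.3, 34.4, 25.7 and 328 FPKM as ESCs, and 772, 399, 234 and 852 FPKM at cXENp1. They make up most of both KO2.6 sums, which cannot be set beside sums from libraries that list them at 0. What the listed zeros stand for was not tested. The 10 fibroblast markers summed to 1278 FPKM in Rescue3.34 at cXENp3, with all 10 at 1 FPKM or more, against 37.6 in WT3, 289 to 374 in the KO lines and 560 to 646 in the XEN lines. With such sums in the XEN lines, this list cannot tell fibroblast RNA from RNA of other cells.

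The 8 genes did not share 1 course. Lin28a and Lin28b were lower in the KO lines than in the Zfp281-present lines at every stage. Lin28b, Igf2bp1 and Igf2bp3 were highest at passage 1 in all 4 lines, and Igf2bp2 was lowest there in all 4. Hmga1 was high in ESCs and low in XEN lines, and at passage 3 it was lower in the KO lines than in WT3 and Rescue3.34. Trim71 was lower in the KO lines in ESCs and at passage 3 and higher at passage 1, and Hmga2 was higher at passage 1 than in ESCs in 3 lines and lower in KO2.6.

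**Figure D2:**
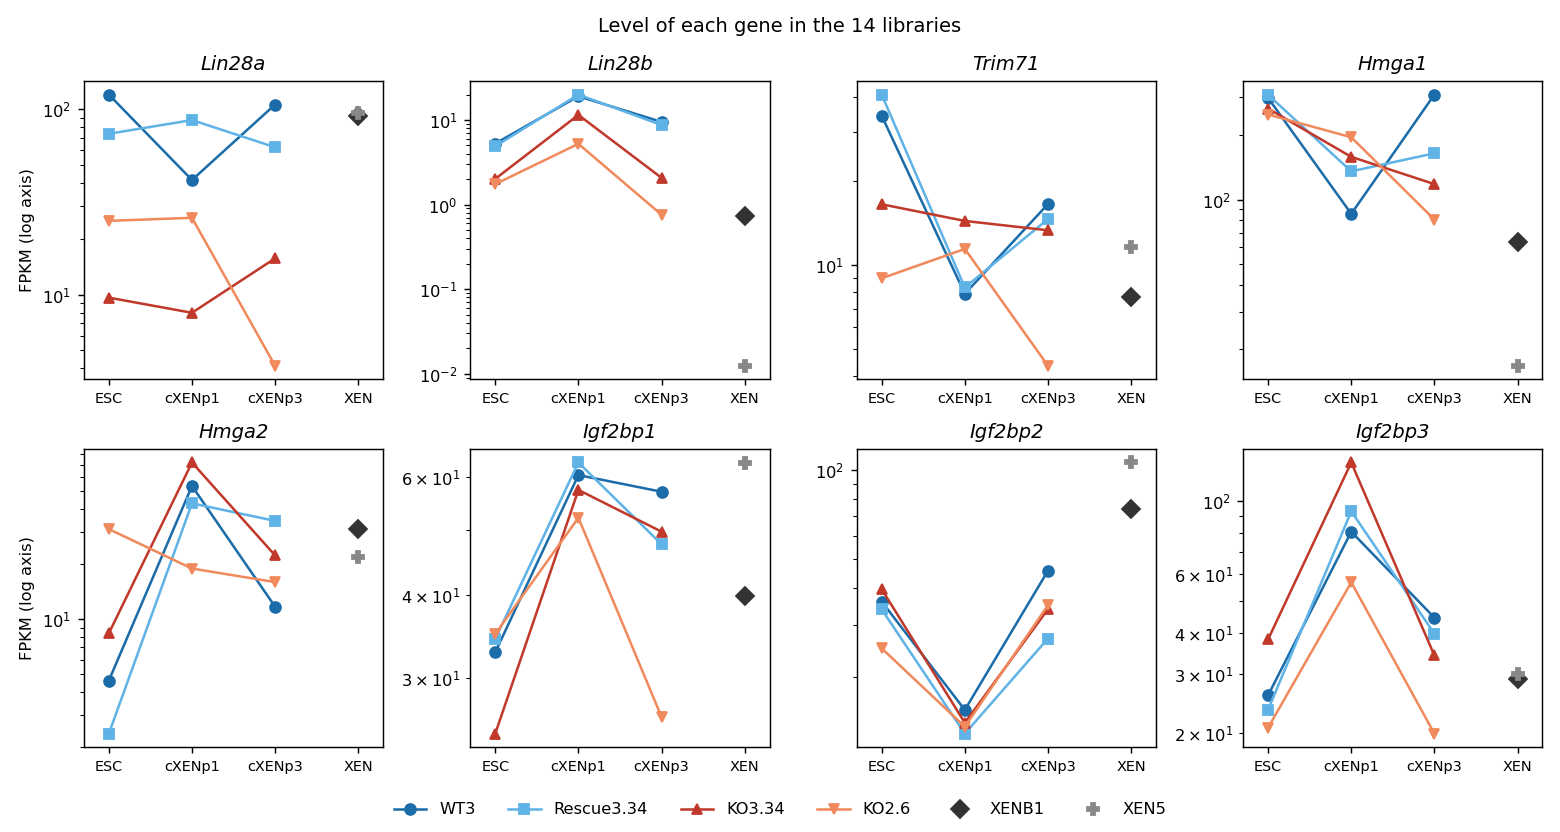
FPKM (log axis, scaled per panel) of each gene in the 14 libraries, by stage; lines join the 3 stages of a line, and each point is 1 library. Lin28a in the KO lines (at most 26.0 FPKM) lies below the Zfp281-present lines (at least 41.6 FPKM) throughout, and the Igf2bp2 panel dips at cXENp1 to between 12.9 and 15.5 FPKM.

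Lin28a (XLOC_014823, chromosome 4, 133559245 to 133574731 in the coordinates of the table, for which the submitters' processing notes name the build mm9) had 120.1 and 73.8 FPKM in WT3 and Rescue3.34, against 9.64 FPKM (KO3.34) and 25.0 FPKM (KO2.6) as ESCs. At cXENp1 the values were 41.6, 87.5, 7.99 and 26.0 FPKM in the same order, and at cXENp3 they were 106, 62.4, 15.7 and 4.14 FPKM. At all 3 stages both KO libraries lay below both Zfp281-present libraries. The share of all genes that separate in this way was not counted, here and for the other members. The mean of the Zfp281-present lines exceeded that of the KO lines 5.59-fold in ESCs, 3.80-fold at cXENp1 and 8.50-fold at cXENp3.

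Putting Zfp281 back into KO3.34 went with a higher Lin28a level at each stage: Rescue3.34 had 7.66, 11.0 and 3.98 times the FPKM of KO3.34 in ESCs, at cXENp1 and at cXENp3. These are ratios of 1 library to 1 and have no replicate check. XENB1 and XEN5 had 91.6 and 96.1 FPKM, a level near those of WT3 and Rescue3.34. The pluripotency markers were low in the same 2 libraries, with sums of 132 and 86.7 FPKM.

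How the KO lines stood in these markers depended on Dppa5a, the most abundant of them in ESCs and at cXENp1. The sum of all 12 was 8293 to 10078 FPKM in KO ESCs against 7615 to 7740 in the Zfp281-present ESCs, and 785 to 1112 against 363 to 733 FPKM at cXENp1. Without Dppa5a, a sum added after the values were seen, the order turned in ESCs, with 3157 to 3854 FPKM in the KO lines against 4101 to 4273, and the groups overlapped at cXENp1, with 115 to 143 against 121 to 170 FPKM. In ESCs Sox2, Esrrb, Klf2, Zfp42 and Utf1 were lower in both KO libraries than in both Zfp281-present ones, as Lin28a was, and 3 of the 12 (Pou5f1, Tbx3 and Dppa5a) were higher. At cXENp1 2 markers, Sox2 and Klf2, were lower in both KO libraries and 4 were higher, and at cXENp3 11 of the 12 were lower. How many of all genes separate the libraries in this way was not counted, so these counts are no result about the markers. The part of these markers in the Lin28a difference was not tested at any stage.

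Groups were compared with limma on log2(FPKM + 1), with p-values adjusted over all genes tested (Benjamini-Hochberg) and a gene called at an adjusted p under 0.05. This scale understates the change of low values. Within a stage, 2 KO libraries were set against 2 Zfp281-present libraries, with the spread shared over the 12 libraries of the course, and neighbouring comparisons share libraries. At cXENp3 3 of the 8 genes were called, Lin28a, Lin28b and Hmga1, all lower in the KO lines, where 41.9% of all genes were called. The share of 3 in 8 is near that background, and the count is no result about the set.

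Lin28a was lower in the KO lines by a log2 difference of -3.15 at cXENp3 (SE 0.70, limma adjusted p 0.00624). Without WT3 the difference was -2.78 and the call ended (adjusted p 0.1). Where a line was left out, the lone library of a group was assumed to vary like the other groups. In ESCs the difference was -2.52 (SE 0.70, adjusted p 0.0861) and at cXENp1 -1.98 (SE 0.70, adjusted p 0.314), neither past the threshold. Between ESC and cXENp1 Lin28a differed by -0.36 over the 4 lines (SE 0.53, adjusted p 0.634), higher at cXENp1 in 2 of them and lower in 2.

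In ESCs 0 of the 8 genes were called, against 1.97% of all genes. An unadjusted p under 0.05 was reached by 4 of the 8 members and by 2762 of the 13191 genes tested. At cXENp1 0 were called, against 0.485% of all genes. There an unadjusted p under 0.05 was reached by 2 of the 8 members and by 1486 of the 13191 genes tested.

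Because Lin28a ran the same way at every stage, the mean of the 3 stage differences was tested as well, with line as a random block; this comparison was added after the values were seen. It called 2 of the 8 genes, Lin28a and Lin28b, where 25.6% of all genes were called. The consensus correlation within a line was 0.0371, so the 3 libraries of a line counted almost as separate replicates. With 2 lines on each side, the p-values of both genes measure the spread between libraries and not between lines. They are no independent check, since the values prompted the comparison. Lin28a was lower over the course by -2.55 (SE 0.42, limma adjusted p 0.00344), and by -2.25 (adjusted p 0.0498) over ESC and cXENp1 alone. The call ended without WT3 (-2.48, adjusted p 0.0861) and without Rescue3.34 (-2.62, adjusted p 0.06).

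Lin28b (XLOC_001947, chromosome 10, 45096425 to 45190007), the paralog that also blocks let-7 maturation, was the lower of the pair in 13 of 14 libraries. As ESCs it had 5.27 and 4.89 FPKM in WT3 and Rescue3.34, against 2.02 FPKM (KO3.34) and 1.75 FPKM (KO2.6). At cXENp1 it had 19.1, 19.97, 11.5 and 5.23 FPKM, and at cXENp3 9.50, 8.72, 2.07 and 0.760 FPKM. Every line was higher at cXENp1 than as ESCs, and at each stage both KO libraries were below both Zfp281-present ones. XENB1 had 0.728 FPKM and XEN5 0.0125, below every library of the course.

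Lin28b rose from ESC to cXENp1 by 1.69 (SE 0.27, limma adjusted p 0.00281) over the 4 lines, with line as a block, and was not called without that block (adjusted p 0.0535). In the descriptions of the libraries, WT3, Rescue3.34 and KO3.34 ESCs begin with JH and the other 11 with XH, a mark whose meaning the labels do not give. This prefix and the stage cannot be told apart except in KO2.6, where Lin28b went from 1.75 to 5.23 FPKM. With the prefix as a term the difference was 1.01 (adjusted p 0.153).

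Lin28b was lower in the KO lines at cXENp3 by -2.12 (SE 0.35, adjusted p 0.00157), and the call ended without WT3 (-2.06, adjusted p 0.0605). In ESCs the difference was -1.08 (SE 0.35, limma adjusted p 0.123) and at cXENp1 -1.22 (SE 0.35, adjusted p 0.193). Without KO3.34 these differences were -1.15 and -1.72, with KO2.6 as the lone KO library. Among the ESC libraries KO2.6 alone has the prefix XH, so genotype, line and prefix cannot be told apart there. Over the course it was lower by -1.47 (SE 0.21, adjusted p 0.00166), and not called without WT3 (adjusted p 0.082) or Rescue3.34 (adjusted p 0.0598).

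The make-up of the Lin28 pair differed between cell states. Lin28a made up 95.8% of the summed Lin28 FPKM in WT3 ESCs, 68.6% at cXENp1 and 91.8% at cXENp3. In KO3.34 at cXENp1 it was below Lin28b, with 41.0% of the sum. In the XEN lines it was 99.2% and 99.99%. The summed level ran from 4.90 FPKM in KO2.6 at cXENp3 to 125 FPKM in WT3 ESCs.

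Trim71 (XLOC_022001, chromosome 9, 114420391 to 114473487) had 34.2 and 40.7 FPKM in WT3 and Rescue3.34, against 16.5 FPKM (KO3.34) and 8.98 FPKM (KO2.6) as ESCs. At cXENp1 the order was turned, with 7.90 and 8.32 FPKM in WT3 and Rescue3.34 against 14.4 FPKM (KO3.34) and 11.4 FPKM (KO2.6). At cXENp3 it had 16.5, 14.6, 13.3 and 4.37 FPKM, and XENB1 and XEN5 had 7.69 and 11.6. The KO and Zfp281-present libraries did not overlap at any stage, with the KO lines lower in ESCs and at cXENp3 and higher at cXENp1. For how many of all genes this holds was not counted.

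None of these Trim71 differences was called: -1.54 in ESCs (SE 0.41, limma adjusted p 0.0812), 0.60 at cXENp1 (SE 0.41, adjusted p 0.659) and -0.92 at cXENp3 (SE 0.41, adjusted p 0.101). Without KO3.34, with KO2.6 as the lone KO library, the ESC difference was -1.94 and the cXENp3 difference -1.62. Genotype, line and prefix cannot be told apart in that ESC difference. With quantile normalization of all lines the cXENp3 difference was -1.11 (limma adjusted p 0.0492). The turn between cXENp1 and cXENp3, tested as an interaction, was -1.52 (SE 0.59, adjusted p 0.109), and -2.07 without KO3.34 (adjusted p 0.0133). From ESC to cXENp1 the difference over the 4 lines was -1.0 (SE 0.41, adjusted p 0.0923). Without KO2.6, the line in which Trim71 was higher at cXENp1 than in ESCs, it was -1.44 (limma adjusted p 0.0246). Stage and prefix cannot be told apart at all without that line. Over the settings tried the Trim71 difference ran from -1.44 to -0.34.

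Hmga1 (XLOC_008333, chromosome 17, 27693519 to 27700617) was the most abundant member in all 12 libraries of the course. Near-identical processed copies of Hmga1 exist in the genome, so its level is uncertain where reads could be split among them. As ESCs it had 298 and 308 FPKM in WT3 and Rescue3.34, against 265 FPKM (KO3.34) and 249 FPKM (KO2.6). At cXENp1 it had 85.7, 135, 158 and 195 FPKM, and at cXENp3 309, 164, 118 and 80.6 FPKM. The KO lines were lower than the Zfp281-present lines in ESCs, higher at cXENp1 and lower at cXENp3, without overlap at any stage. In ESCs the difference was -0.23 and not called (SE 0.33, limma adjusted p 0.761). The share of all genes without overlap was not counted.

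At cXENp1 Hmga1 was lower than as ESCs in all 4 lines, by -1.01 without a call (SE 0.39, limma adjusted p 0.0799), and by -1.23 without KO2.6 (adjusted p 0.0434). Stage and prefix cannot be told apart without KO2.6, and over the settings tried the difference ran from -1.23 to -0.60. The turn of Hmga1 between the passages was the interaction called among the 8 genes (1 of 8, where 11.4% of all genes were called). It amounted to -1.90 (SE 0.46, limma adjusted p 0.03), from a KO difference of 0.70 at cXENp1 (SE 0.33, adjusted p 0.467) to -1.20 at cXENp3 (SE 0.33, adjusted p 0.0155). From cXENp1 to cXENp3 Hmga1 went from 85.7 to 309 FPKM in WT3 and from 135 to 164 in Rescue3.34, and from 158 to 118 in KO3.34 and from 195 to 80.6 in KO2.6.

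WT3 moved farthest, and the interaction was -1.12 (adjusted p 0.446) without it. It was also not called without Rescue3.34 (-2.68, adjusted p 0.0533), without KO2.6 (-1.48, adjusted p 0.163) or when every gene with a value above 0 was tested (adjusted p 0.0529). The cXENp3 difference ended without WT3 (-0.75, adjusted p 0.197) and without KO2.6 (-0.93, adjusted p 0.131). The pluripotency marker sum ran in the same order as Hmga1 at cXENp3, from 7963 FPKM in WT3 to 378 in KO2.6, and its part in the Hmga1 difference was not tested.

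Within the KO lines Hmga1 fell from ESC to cXENp3 by 1.39 (SE 0.33, limma adjusted p 0.00655), and was the member called there (1 of 8, where 47.8% of all genes were called). Without KO2.6 it was -1.16 (adjusted p 0.104). In the Zfp281-present lines 0 of the 8 genes were called between the same stages, where 1.3% of all genes were. An unadjusted p under 0.05 was reached there by 2 of the 8 members and by 2405 of the 13191 genes tested. The 2 members were Trim71 (-1.21, SE 0.41, adjusted p 0.176) and Hmga2 (2.29, SE 0.72, adjusted p 0.149). Quantile normalization moved the median of all genes from -0.00 to -0.15 for the KO lines from ESC to cXENp3, and from 0.01 to -0.10 for the KO difference at cXENp3, and the Hmga1 calls held under it.

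Hmga2 (XLOC_002243, chromosome 10, 119798331 to 119913991) had 4.61 and 2.37 FPKM in WT3 and Rescue3.34, against 8.37 FPKM (KO3.34) and 31.1 FPKM (KO2.6) as ESCs. At cXENp1 it had 53.5, 43.0, 71.9 and 18.9 FPKM, at cXENp3 11.7, 34.5, 22.3 and 15.9 FPKM, and in XENB1 and XEN5 31.1 and 22.0 FPKM. WT3, Rescue3.34 and KO3.34 were higher at cXENp1 than as ESCs, whereas KO2.6 started at the level of XENB1 and was lower at cXENp1.

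KO2.6 ESCs were also the ESC library with 511 FPKM of XEN markers, and their part in its Hmga2 level was not tested. Hmga2 was higher in the KO lines in ESCs by 2.00 (SE 0.72, limma adjusted p 0.153), without passing the threshold, and by 2.88 without KO3.34. The latter sets KO2.6 (prefix XH) against WT3 and Rescue3.34 (both JH), so genotype, line and prefix cannot be told apart in it. At cXENp1 and cXENp3 the KO and Zfp281-present libraries overlapped. Of the 2 Zfp281-present libraries at cXENp3, Rescue3.34 had the higher Hmga2 level, and it also had 1278 FPKM of fibroblast markers. The part of fibroblast RNA in that value was not tested.

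From ESC to cXENp1 5 of the 8 genes were called over the 4 lines, Lin28b, Hmga2, Igf2bp1 and Igf2bp3 higher and Igf2bp2 lower, where 28.5% of all genes were called. That share is above the background, and no test of the set was made. Hmga2 rose by 2.32 (SE 0.67, limma adjusted p 0.0296), and the call ended without WT3 (1.99, adjusted p 0.116), Rescue3.34 (1.85, adjusted p 0.115) or KO3.34 (2.1, adjusted p 0.145). The call also ended when every gene with a value above 0 was tested (adjusted p 0.0522). In KO2.6, whose libraries share the prefix XH, Hmga2 went from 31.1 to 18.9 FPKM. With the prefix as a term 0 of the 8 genes were called, where 3.33% of all genes were, and Hmga2 had the other sign (-0.27, adjusted p 0.795).

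**Figure D3:**
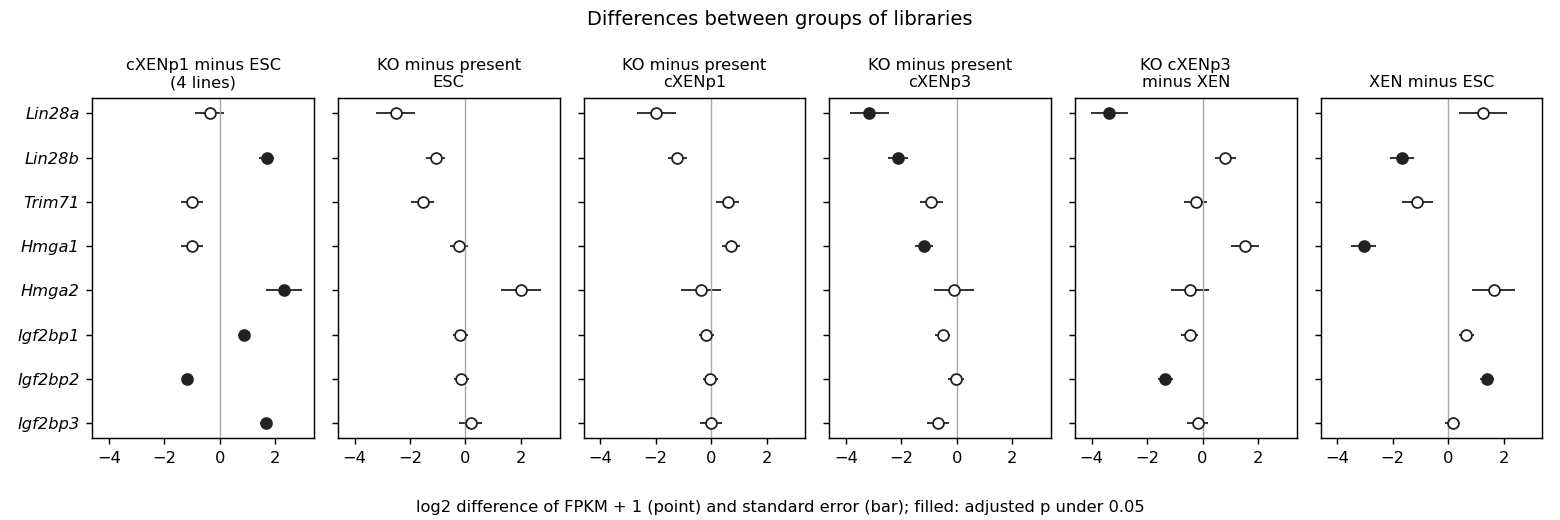
Log2 difference of FPKM + 1 (points) with its standard error (bars) for the 8 genes in 6 comparisons; filled points have a limma adjusted p under 0.05. The Igf2bp genes lie between -0.67 and 0.19 in the 3 panels of KO against Zfp281-present lines, and Lin28a lies at -3.15 at cXENp3 and at -3.36 against the XEN lines.

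Igf2bp1 (XLOC_003742, chromosome 11, 95818478 to 95867258) had the narrowest range of the 8 genes, 2.55-fold between its lowest and highest library. As ESCs it had 32.8 and 34.3 FPKM in WT3 and Rescue3.34, against 24.7 FPKM (KO3.34) and 34.9 FPKM (KO2.6), at cXENp1 60.4, 63.1, 57.4 and 52.1, and at cXENp3 57.1, 47.6, 49.7 and 26.2 FPKM. XENB1 and XEN5 had 39.8 and 63.1 FPKM. All 4 cXENp1 libraries were above all 4 ESC libraries.

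Igf2bp1 rose from ESC to cXENp1 by 0.87 (SE 0.22, limma adjusted p 0.0189). Leaving out WT3 (adjusted p 0.0638), Rescue3.34 (0.87, adjusted p 0.0969) or KO3.34 (0.76, adjusted p 0.0991) ended the call, and the prefix as a term gave 0.29 (adjusted p 0.561). Within KO2.6, whose libraries share 1 prefix, the level went from 34.9 to 52.1 FPKM.

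Igf2bp3 (XLOC_017097, chromosome 6, 49035217 to 49164953) had the lowest adjusted p of the 8 genes at this step. As ESCs it had 25.9 and 23.5 FPKM in WT3 and Rescue3.34, against 38.2 FPKM (KO3.34) and 20.7 FPKM (KO2.6), and at cXENp1 80.7, 93.0, 131 and 56.8 FPKM. At cXENp3 it was back to 44.4, 39.7, 34.2 and 19.8 FPKM, near the 28.9 and 30.1 FPKM of XENB1 and XEN5. All 4 lines peaked at passage 1, and the lowest cXENp1 library lay above the highest ESC library. The rise from ESC to cXENp1 was 1.68 (SE 0.21, limma adjusted p 0.000912), 1.36 with the prefix as a term (adjusted p 0.0748), and in KO2.6 the level went from 20.7 to 56.8 FPKM.

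Igf2bp2 (XLOC_007872, chromosome 16, 22059082 to 22163372) ran the other way. As ESCs it had 36.0 and 33.9 FPKM in WT3 and Rescue3.34, against 39.6 FPKM (KO3.34) and 25.0 FPKM (KO2.6), and at cXENp1 15.5, 12.9, 14.05 and 13.6 FPKM. At cXENp3 it had 45.7, 27.0, 33.9 and 35.0 FPKM, and XENB1 and XEN5 had 73.8 and 106, above all 12 libraries of the course. All 4 lines were lowest at cXENp1, without overlap with their ESC libraries, and the share of all genes of which this holds was not counted.

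Igf2bp2 fell from ESC to cXENp1 by 1.19 (SE 0.18, limma adjusted p 0.00228), with -0.81 (adjusted p 0.122) when the prefix was a term, and in KO2.6 the level went from 25.0 to 13.6 FPKM. Of the summed Igf2bp FPKM, Igf2bp2 made up 31.1% to 38.6% in ESCs, 6.95% to 11.1% at cXENp1, and 51.8% and 53.2% in XENB1 and XEN5. Igf2bp3 made up 46.3% to 64.6% at cXENp1 and 20.3% and 15.1% in the XEN lines. The sum over the 3 genes stayed within 80.7 to 202 FPKM over all libraries.

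**Figure D4:**
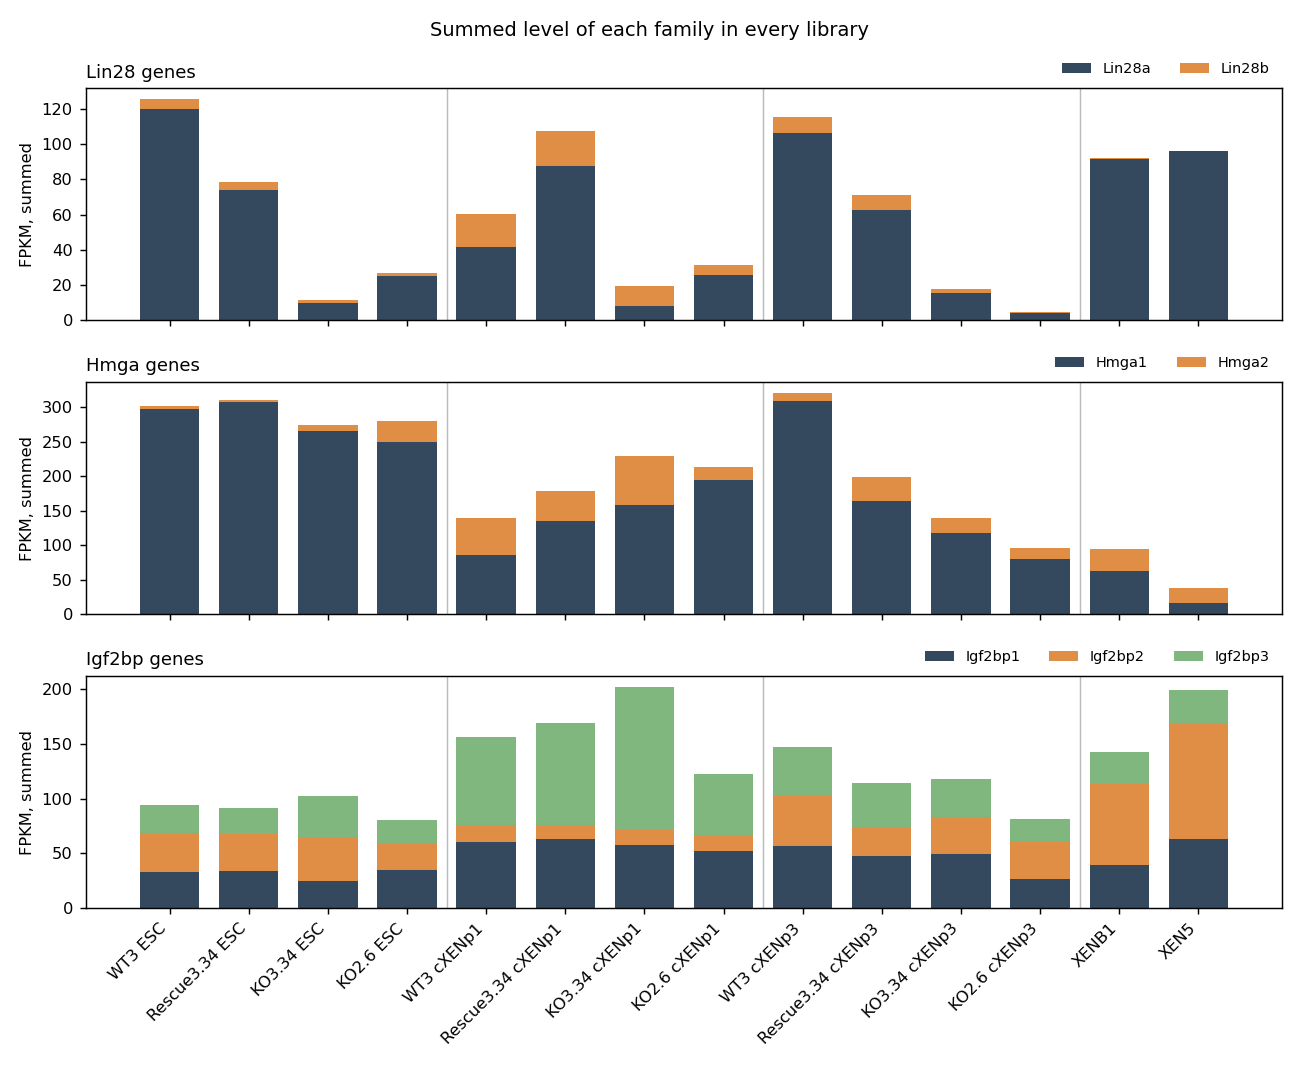
Summed FPKM of the Lin28, Hmga and Igf2bp genes in each library (stacked bars from 0, 1 colour per gene), ordered by stage with the XEN lines last. The bars of Igf2bp3 are tallest at cXENp1, those of Igf2bp2 in XENB1 and XEN5, and the Lin28 sum is lowest in KO2.6 at cXENp3 with 4.90 FPKM.

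The KO difference of the 3 Igf2bp genes was not called at any stage, and lay between -0.67 (Igf2bp3 at cXENp3, SE 0.40, limma adjusted p 0.208) and 0.19 (Igf2bp3 in ESCs, SE 0.40, adjusted p 0.875). Igf2bp2 differed by -0.14 in ESCs (SE 0.28), -0.03 at cXENp1 (SE 0.28) and -0.03 at cXENp3 (SE 0.28). Without KO3.34, Igf2bp1 (-0.96, adjusted p 0.00701) and Igf2bp3 (-1.05, adjusted p 0.00565) were called lower at cXENp3. KO2.6 had the lowest Igf2bp1 and Igf2bp3 levels at that stage.

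The endpoint was read from XENB1 and XEN5 against the 4 ESC libraries. These ESC libraries are of both the KO and the Zfp281-present lines, and both XEN lines are wild type. Genotype is thus mixed into each difference, and its part was not tested. Of the 8 genes 3 were called, Hmga1 and Lin28b lower and Igf2bp2 higher in the XEN lines, where 41.9% of all genes were called, again a share near the background. Hmga1 had 63.4 and 16.8 FPKM in XENB1 and XEN5 against 249 to 308 in ESCs, and fell by 3.05 on the log2 scale (SE 0.44, limma adjusted p 0.00131). Lin28b differed by -1.66 (SE 0.43, adjusted p 0.0171), by -3.39 with a pseudocount of 0.1, by -1.28 without XEN5 (adjusted p 0.161) and by -1.05 with the prefix as a term (adjusted p 0.169). Igf2bp2 rose by 1.39 (SE 0.26, adjusted p 0.00384), or 1.13 without XEN5 (adjusted p 0.0562).

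The other 5 genes were not called at the endpoint. Lin28a differed by 1.25 (SE 0.86, limma adjusted p 0.273), its 2 XEN values lying inside the span of the ESC libraries. Both lay between the 73.8 FPKM of Rescue3.34 ESCs and the 120 FPKM of WT3 ESCs. The KO ESCs had 9.64 FPKM (KO3.34) and 25.0 FPKM (KO2.6). Trim71 differed by -1.11 (SE 0.56, limma adjusted p 0.146) and Hmga2 by 1.64 (SE 0.78, adjusted p 0.126), and both were called without KO2.6 (-1.50, adjusted p 0.0167, and 2.27, adjusted p 0.00412). Without KO2.6 every ESC library has the prefix JH, so cell type and prefix cannot be told apart. Trim71 and Hmga2 had the other sign with the prefix as a term (0.066, adjusted p 0.936, and -0.24, adjusted p 0.772). Igf2bp1 differed by 0.66 (SE 0.26, adjusted p 0.0731) and Igf2bp3 by 0.16 (SE 0.27, adjusted p 0.67).

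The KO lines at cXENp3, in which 10 of 14 XEN markers reached 1 FPKM, were set against the established XEN lines. That count does not by itself mark XEN cells, since all 14 reached 1 FPKM in KO2.6 ESCs. The 12 pluripotency markers summed to 1168 FPKM in KO3.34 and 378 in KO2.6, against 132 in XENB1 and 86.7 in XEN5. Of these 12, 6 were called higher in the KO lines and 0 lower, against 2.64% and 1.48% of all genes. Of the 8 genes 2 were called, Lin28a and Igf2bp2, both lower in the KO lines, where 4.12% of all genes were called. Lin28a had 15.7 FPKM in KO3.34 and 4.14 in KO2.6 against 91.6 in XENB1 and 96.1 in XEN5, a log2 difference of -3.36 (SE 0.66, limma adjusted p 0.0191). Igf2bp2 had 33.9 and 35.0 FPKM against 73.8 and 106, a difference of -1.34 (SE 0.28, adjusted p 0.0273). XENB1 and XEN5 are wild type, so that genotype, line and culture history cannot be told apart in this comparison. The part of the pluripotency RNA in these differences was not tested.

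Leaving out single lines ended both calls in most cases. Lin28a was not called without WT3, Rescue3.34, XENB1 (-3.39) or XEN5 (-3.32), although the difference itself hardly moved. WT3 and Rescue3.34 are not part of this contrast and bear on the shared spread. Without either, the differences stayed at -3.36 (Lin28a) and -1.34 (Igf2bp2). The Lin28a difference was -4.21 without KO3.34 and -2.51 without KO2.6. Igf2bp2 was not called without any of WT3 (adjusted p 0.0875), Rescue3.34 (adjusted p 0.0862), KO3.34 (-1.31, adjusted p 0.0598), KO2.6 (-1.36, adjusted p 0.0886) and XEN5 (-1.08, adjusted p 0.186). Hmga1 was higher in the KO lines by 1.54 (SE 0.50, adjusted p 0.116), and by 2.47 without XENB1 (adjusted p 0.0129). The other members differed by between -0.46 (Igf2bp1) and 0.81 (Lin28b), and none of them was called.

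Genes that act with LIN28 on let-7 were described from a list of 21 genes for let-7 processing and its partners. From ESC to cXENp1 5 of 21 were called higher and 1 lower, against 14.7% and 13.8% of all genes. With the prefix as a term, a setting added for the lists after their values were seen, 0 were called in either direction, against 2.12% of all genes higher and 1.21% lower. Zcchc11, the terminal uridylyl transferase that LIN28A recruits to let-7 precursors, rose by 0.96 (SE 0.25, limma adjusted p 0.0211), and Tnrc6b, a partner of Argonaute proteins, rose by 0.99 (SE 0.26, adjusted p 0.0213).

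In the XEN lines 0 of the 19 genes tested were higher and 5 lower than in ESCs, against 22.2% and 19.7% of all genes. With the prefix as a term 2 were higher and 0 lower, against 19.4% and 13.4%. Msi1, an RNA-binding protein known as a partner of LIN28, fell by 2.03 (SE 0.53, adjusted p 0.0173), and Dis3l2, the exonuclease that degrades uridylated let-7 precursors, fell by 1.20 (SE 0.39, adjusted p 0.0398), and neither was called with the prefix as a term (-0.66, adjusted p 0.0986, and -0.30, adjusted p 0.465).

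At cXENp3 the KO lines had 3 of these 21 genes higher and 4 lower, against 22.9% and 19% of all genes. Msi1 had 22.8 FPKM in WT3 and 9.95 in Rescue3.34 against 2.34 in KO3.34 and 1.41 in KO2.6, a difference of -2.51 (SE 0.52, limma adjusted p 0.00463). Zcchc6, the second uridylyl transferase of this pathway, was higher by 1.15 (SE 0.25, adjusted p 0.00585). Ago1 (listed under its older symbol Eif2c1), an Argonaute protein that carries mature microRNAs, was lower by -0.94 (SE 0.29, adjusted p 0.027).

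The other let-7 targets were a list of 40 genes without the 8 members. From ESC to cXENp1 14 were called higher and 5 lower, against 14.7% and 13.8% of all genes, with a median difference of 0.51 against 0.00 over all genes. With the prefix as a term 2 were called higher and 0 lower, against 2.12% and 1.21% of all genes. Thbs1, an extracellular matrix glycoprotein, rose by 4.23 (SE 0.63, limma adjusted p 0.00193), Ccnd2, a G1 cyclin, by 4.20 (SE 0.61, adjusted p 0.00174) and Plagl1, a zinc finger factor, by 3.33 (SE 0.58, adjusted p 0.00413), while Mycn fell by 3.02 (SE 0.71, adjusted p 0.0137). None of these 4 was called with the prefix as a term (Thbs1 4.41, adjusted p 0.0745; Ccnd2 4.50, adjusted p 0.0688; Plagl1 2.62, adjusted p 0.147; Mycn -1.18, adjusted p 0.473). In KO2.6, whose libraries share 1 prefix, Mycn went from 36.3 to 43.7 FPKM, against the direction of the other 3 lines.

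At cXENp3 the KO lines had 8 of the 40 let-7 targets higher and 4 lower, against 22.9% and 19% of all genes, with a median of -0.19 against 0.01 over all genes. The 3 largest were Fndc3a (3.00, SE 0.20, limma adjusted p 1.82e-05), Irs2, an insulin receptor substrate (2.77, SE 0.33, adjusted p 0.000361), and Dna2, a DNA replication nuclease (-2.39, SE 0.41, adjusted p 0.00177).

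The IGF axis, whose Igf2 mRNA the IGF2BP proteins bind, was a list of 15 genes. From ESC to cXENp1 12 of 15 were called higher and 0 lower, against 14.7% and 13.8% of all genes, with a median of 1.92 against 0.00 over all genes. Igf2 had 0.239 to 0.749 FPKM in ESCs and 12.1 to 32.8 at cXENp1, a rise of 3.85 (SE 0.96, limma adjusted p 0.0176). Its imprinted neighbour H19, a noncoding RNA that carries the precursor of another microRNA, rose by 5.28 (SE 0.83, adjusted p 0.00248). Of the 15 genes 1 was called higher and 0 lower with the prefix as a term, against 2.12% and 1.21% of all genes. Neither Igf2 (2.59, limma adjusted p 0.324) nor H19 (4.49, adjusted p 0.11) was called with it. Igf2bp1 and Igf2bp3 were at their highest at the same stage in all 4 lines, and these stage comparisons share their libraries.

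At cXENp3 2 of the 15 genes of the IGF axis were higher and 2 lower in the KO lines, against 22.9% and 19% of all genes. Igfbp2, an IGF-binding protein, had 1340 and 518 FPKM in WT3 and Rescue3.34, against 93.5 FPKM (KO3.34) and 48.8 FPKM (KO2.6) (-3.60, SE 0.85, limma adjusted p 0.00823), and Gpc3, a glypican that binds growth factors at the cell surface, was lower by -3.00 (SE 0.73, adjusted p 0.0098). Irs2 (2.77, adjusted p 0.000361) and Insr, the insulin receptor (2.1, SE 0.37, adjusted p 0.00221), were higher, and both also stand among the let-7 targets. Igf2, shown here after its values were seen, did not separate the lines: it had 3.56 and 358 FPKM in WT3 and Rescue3.34, against 15.4 FPKM (KO3.34) and 8.50 FPKM (KO2.6). Rescue3.34 was the library with 1278 FPKM of fibroblast markers, and the part of fibroblast RNA in its Igf2 value was not tested. At the endpoint 10 of the 15 were called higher and 1 lower in the XEN lines, against 22.2% and 19.7% of all genes, with Igf1 higher by 3.10 (SE 0.23, adjusted p 5.95e-05) and Igfbp2 lower by -5.67 (SE 0.86, adjusted p 0.00161).

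The members did not form 1 pattern across the 14 libraries. The log2 levels of Lin28b and Igf2bp3 had the highest Pearson correlation of the 28 pairs (0.74), followed by Igf2bp1 and Igf2bp3 (0.67). The paralogs Lin28a and Lin28b had 0.19 and Hmga1 and Hmga2 -0.43. Lin28b and Igf2bp2 had -0.77, the lowest. These coefficients describe 14 libraries that share lines and stages, and no test was made of them.

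Genes most like each member were sought by the same coefficient over 14 libraries, among 9278 genes with at least 10 FPKM in a library. Lin28b had Mael (0.97), which is known from piRNA defence in germ cells, Ypel1 (0.96) and Col18a1 (0.96). Hmga1 had Dppa5a (0.97), a pluripotency marker, Gsr (0.96), the glutathione reductase, and Them6 (0.94). Igf2bp3 had Stau2 (0.94), an RNA-binding protein, Fam178a (0.94) and Pdk3 (0.94), a pyruvate dehydrogenase kinase, and Trim71 had Pfas (0.92), an enzyme of purine synthesis. Igf2bp2 had Adpgk (0.93), a glucokinase that uses ADP, Hmga2 had Ddx52 (0.90), a DEAD-box RNA helicase, among the 3 genes of its list, and Igf2bp1 had Gnb4 (0.90), a G protein subunit. Lin28a had the weakest likeness, with Pcgf2 (0.84), a Polycomb subunit, at the head of its list.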

How the data were processed

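PolyA RNA-seq libraries were sequenced as paired reads of 150 bp, per the labels' protocols. The submitters' processing notes name STAR 2.5.3, Cufflinks 2.1.1 and mm9, without roles. The authors deposited 1 table of 23174 rows, whose values were taken as FPKM made by the authors with these tools, from the submitters' processing notes and the form of the values, since no header names the unit. Low values show no steps of 1 fragment (4.08% near whole multiples), so no intervals were computed. A symbol repeats in 259 rows, none of them a member.

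Genes with at least 1 FPKM in 2 fitted libraries were analysed as log2(FPKM + 1) with limma 3.58.1 in R 4.3.3 (lmFit, eBayes with trend), and p-values were adjusted over all genes tested (Benjamini-Hochberg). The fits were tested on simulated data. Libraries of the course were fitted as 6 groups of 2 (KO or Zfp281-present by stage), or by stage with line as a block, since each line gave 1 library per stage. Genes named are the 8 members, Zfp281, up to 4 called genes of largest difference per list and comparison, and the 3 genes most like each member. Members and lists were chosen with earlier results of these data known. Let-7 matches were counted in the longest 3′ UTR of each gene. Alternatives covered the pseudocount, filter, normalization, variance prior, threshold, block, description prefix and each line left out.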

Additional observations from a re-analysis of the deposited data

Results flagged for a closer look

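Hmga1 moved in opposite directions between passages 1 and 3: higher at passage 3 in WT3 and Rescue3.34, and lower in KO3.34 and KO2.6. The rise was from 85.7 to 309 FPKM in WT3 and from 135 to 164 FPKM in Rescue3.34. The difference between the 2 groups of lines was tested as an interaction and came to -1.90 on the log2 scale (SE 0.46, limma adjusted p 0.03). Of the 8 genes 1 was called in it, where 11.4% of all genes were called. All 8 libraries of these passages carry the same description prefix. The call ended without WT3 (-1.12), Rescue3.34 (-2.68) or KO2.6 (-1.48), each left out in turn. It also ended when every gene with a value above 0 was tested (limma adjusted p 0.0529).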

How the results depend on the processing

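Over 80 results (the 8 genes in 10 comparisons) and 975 values under other settings, 912 kept their side of the threshold, 39 of them with the other sign and without a call, 38 lost the call, 24 gained one and 1 reversed. The reversal of a called result was Hmga2 from ESC to cXENp1 (-0.27) with the description prefix as a term, under which 0 of the 8 genes were called at that step. Testing every gene with a value above 0 left 0 called in the interaction. With 1 line left out the number called ran from 1 to 5 for XEN lines against ESC, from 3 to 7 for cXENp1 against ESC, from 0 to 3 for KO against Zfp281-present lines in ESC, from 0 to 1 at cXENp1 and from 0 to 6 at cXENp3. It ran from 1 to 3 for the KO lines from ESC to cXENp3, from 0 to 2 for the Zfp281-present lines, from 0 to 3 for the interaction, from 0 to 2 for KO cXENp3 against XEN lines and from 0 to 5 over the course. WT3 carried most calls of KO against Zfp281-present lines: without it the number of all genes called at cXENp3 was 1057 in place of 5528. The cause was not tested, apart from the fewer libraries.

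Line as a random replicate block (consensus correlation 0.0371) changed no count of member calls in the comparisons of KO with Zfp281-present lines. Without the line block Lin28b was not called from ESC to cXENp1 (adjusted p 0.0535). Quantile normalization turned the split of all genes called from 2092 higher and 1280 lower to 1801 and 1871 over the course, from 353 and 198 to 251 and 252 for KO cXENp3 against XEN lines, from 2747 and 2434 to 2555 and 2793 for XEN lines against ESC, from 3016 and 2512 to 2587 and 3101 for the KO difference at cXENp3, from 3366 and 2941 to 2805 and 3555 for the KO lines from ESC to cXENp3, and from 1934 and 1826 to 1764 and 1871 for cXENp1 against ESC. Without a turn, it moved the split from 48 and 16 to 64 and 36 at cXENp1. The prefix as a term lowered the number of all genes called from ESC to cXENp1 from 3760 to 439. With no counts, how far depth limits Lin28b in the XEN lines is unknown.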
